A study of Mus musculus with 31 samples.

Results

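Genes that still differed from WT after Hif1α or Myc had been overexpressed in Cxcl5-/- cells were sought in 3D cultures of Panc02, a mouse pancreatic adenocarcinoma line. Each overexpression line was set separately against the same 2 WT libraries: 3 Hif1aOE Cxcl5-/- libraries and 3 MycOE Cxcl5-/- libraries, so 8 of the 31 samples of the series enter these comparisons. The 2 libraries of the parental Cxcl5-/- cells, also in 3D, were used to tell differences that were already there from differences first seen in the overexpression lines. Of 28730 genes tested, 4252 differed from WT in both lines in one direction, and they form the members described here. A member was called unrestored where the Cxcl5-/- cells differed from WT in the same direction, and overshooting where they differed in the opposite direction, so that the lines had passed the WT level.

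All 4 groups were Panc02 cells in 3D culture with ordinary medium. The WT cells carried no edit. The Cxcl5-/- cells were made with CRISPR/Cas9 from a lentiviral vector, and both overexpression lines were made from them by retroviral transduction and puromycin selection, so each line carries the knockout as well. The Hif1α transgene is a stabilised mouse mutant. The study's methods speak in general of biological replicates, but the labels do not say whether the libraries of one group, 2 in WT and in Cxcl5-/-, came from separate cultures, so p-values measure the spread between these libraries, which may be technical. Total counts ran from 41542533 to 43890492 in WT and Cxcl5-/- and from 51419869 to 64872036 in the overexpression lines. Levels below are counts per 1000000 of the scaled library (CPM). Differences are log2 fold changes with their SE, from edgeR's quasi-likelihood test with Benjamini-Hochberg adjustment over all genes tested, called at an adjusted p under 0.05.

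CXCL5 is a chemokine that signals through CXCR2. HIF-1α is the oxygen-regulated subunit of the transcription factor that switches cells to glycolysis under hypoxia, and it acts at DNA sites with the core letters ACGTG. MYC drives growth programmes, ribosome production and the cell cycle, and with its partner MAX binds the E-box CACGTG.

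The targeted genes were read first. Cxcl5 stood at 64.2 and 67.7 CPM in WT, 36.6 and 40.2 in Cxcl5-/-, 35.5, 44.8 and 38.1 in Hif1aOE Cxcl5-/- and 49.1, 46.7 and 37.8 in MycOE Cxcl5-/-. It was itself an unrestored gene, lower than WT by -0.74 ± 0.12 (adjusted p = 0.00174) and -0.57 ± 0.12 (adjusted p = 0.00571). Reads over the gene do not tell whether the protein can be made. Myc was at 49.3 and 46.1 CPM in WT, 22.3 and 20 in Cxcl5-/-, 23, 26.8 and 25.6 in the Hif1α line and 548, 525 and 397 in the Myc line. The Myc line lay above every other library, while the Hif1α line stayed below WT (-0.92 ± 0.13, adjusted p = 0.000625).

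Hif1a was at 304 and 324 CPM in WT, 144 and 133 in Cxcl5-/-, 258, 296 and 243 in the Hif1α line and 241, 271 and 262 in the Myc line. Both lines rose over Cxcl5-/- (0.94 ± 0.10 and 0.90 ± 0.10), and neither lay above WT. The line labelled as overexpressing Hif1α was thus not set apart from the Myc line by reads on Hif1a. Whether reads of the mutant transgene were counted on Hif1a is not stated in the sources used here.

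The sort of cell was checked against fixed markers. Vim, Fn1, Krt8 and Krt18 were abundant in WT (3340, 4520, 471 and 361 CPM on average), whereas the epithelial markers Epcam and Cdh1 were at 0.276 and 0.426 CPM in WT and under that in the other groups. The summed epithelial markers moved with the groups, at 856 and 903 CPM in WT, 287 and 302 in Cxcl5-/-, 705 to 837 in the Hif1α line and 267 to 312 in the Myc line. The 3 islet markers summed to 0.221 and 0.543 CPM in the WT libraries and to 0 in all 8 others. The expected background, explained below, came to 70.1% of the WT reads of the islet marker Gcg and 95.4% of those of Ins1. For Epcam and Cdh1 it came to 94.7% and 126%, so these low WT levels cannot be told apart from background. In bulk RNA, fewer cells of a type and less RNA per cell cannot be told apart.

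The WT libraries stood apart in one respect that touches every comparison against them. Receptor genes of smell, taste and the vomeronasal organ are mostly silent outside sensory tissue, so reads on them were taken as a measure of background in a library. Over 1488 such genes, the WT libraries held 692 and 701 reads per 1000000 counts, the Cxcl5-/- libraries 94.8 and 89.4, the Hif1α line 110 to 146 and the Myc line 89.3 to 141. WT was 5.31 times the Hif1α line and 6.20 times the Myc line. The 2 WT libraries lay above all 8 others (two-sided exact permutation test, p = 0.0444, the smallest this split allows), and against either line alone the smallest possible p is 0.2. A read was found on 95.9% and 96.5% of these genes in WT, against 18% to 57.1% in the other libraries.

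**Figure D1:**
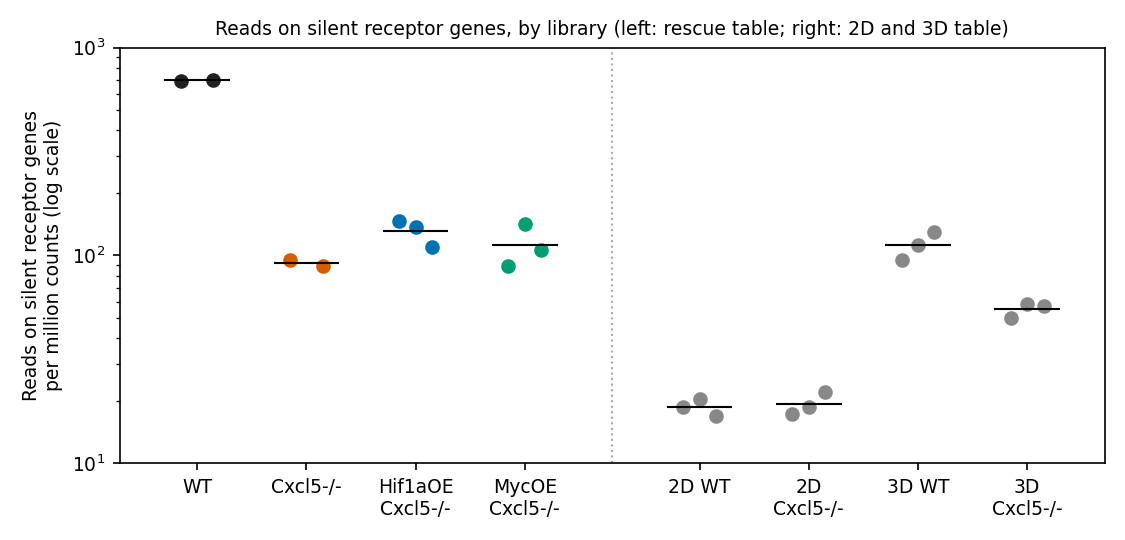
Reads on silent receptor genes per 1000000 counts, on a log axis, with 1 point per library and a bar at the group mean, for the 10 rescue libraries (left) and the 12 libraries of the 2D and 3D table (right). Both WT libraries of the rescue table sit near 700, all other rescue libraries at 146 or below.

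The tests passed part of this background on as differences. Of 946 silent receptor genes with enough counts to test, 146 (15.4%) were called lower than WT in the Hif1α line and 195 (20.6%) in the Myc line. Over all genes tested, 10.3% and 14.7% were. In both lines 73 were called lower (7.72%, against 5.58% of all genes tested). Called higher were 5 in the Hif1α line and 1 in the Myc line. In Cxcl5-/-, which enters the classes below, 456 (48.2%) were called lower than WT, against 24.3% of all genes tested, and 7 higher. For every gene with an annotated length, the background expected in a library was therefore worked out as its silent-gene reads per kilobase times the gene's exonic length. A gene was said to pass the background limit where this came to less than 10% of the count in every library of the group in which the gene was highest, which held for 61.8% of genes tested.

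The Hif1α line had 4001 genes higher than WT (13.9% of those tested) and 2961 lower (10.3%), and the Myc line 4903 higher (17.1%) and 4225 lower (14.7%). The limit was passed by 44.8% and 42.2% of the genes called lower, which are read in the WT libraries with their high background. It was passed by 97.4% and 97.5% of those called higher, which are read in libraries with low background, so the 2 directions are not compared by it. Both lines together were higher for 2648 genes (9.22%) and lower for 1604 (5.58%). The comparisons share the WT libraries, so these counts are given as the definition of the members and not as a test of likeness. All 6 overexpression libraries lay above both WT libraries for 4874 genes (17.0% of those tested) and below both for 7980 (27.8%). In opposite directions, 152 genes were higher in the Hif1α line and lower in the Myc line, and 116 the reverse.

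Among the genes lower in both lines, 1028 were unrestored, 502 were not called in Cxcl5-/- and 74 were overshooting. Among those higher in both, 1334 were unrestored, 898 were not called in Cxcl5-/- and 416 were overshooting. Over all genes tested, 3.58% were thus unrestored lower, 4.64% unrestored higher, 1.45% overshooting higher and 0.258% overshooting lower, and the counts of each gene list below are set beside these shares. Of the 6995 genes lower in Cxcl5-/- than in WT (24.3% of those tested), 14.7% stayed lower in both lines, 5.95% overshot in both and 44.2% were called against WT in neither. Only 52.1% of the 6995 passed the background limit, so these shares include genes whose call may rest on the WT background. Of the 5053 genes higher in Cxcl5-/- (17.6%), 26.4% stayed higher in both, 1.46% overshot and 38.5% were called in neither. A gene not called is not shown to be back at the WT level.

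**Figure D2:**
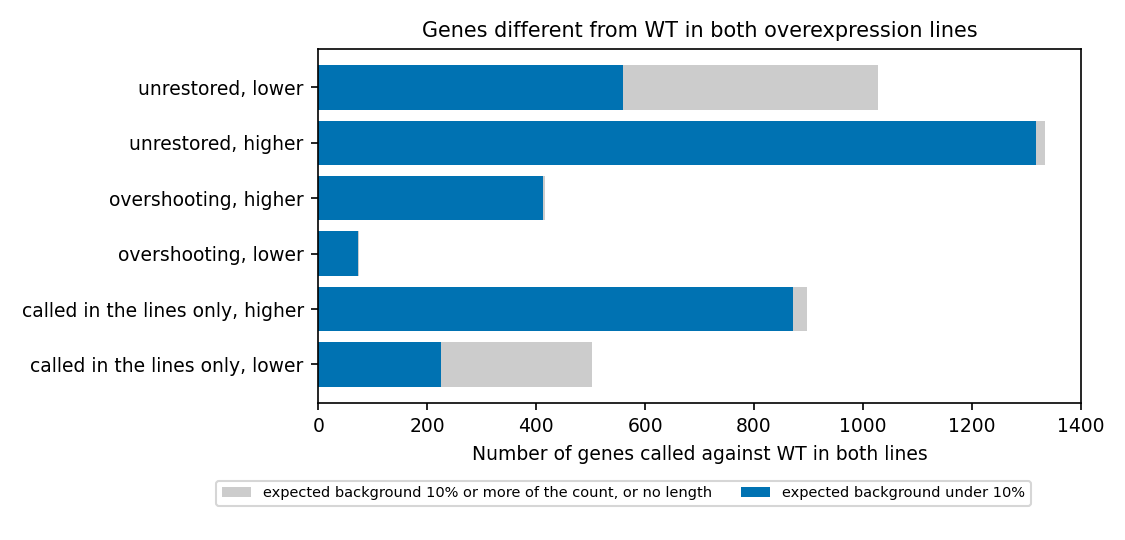
Number of genes called against WT in both lines, by class. The blue part of each bar passes the background limit (560 of 1028 unrestored lower genes, 1318 of 1334 unrestored higher genes, 412 of 416 and 72 of 74 overshooting genes), and the grey part does not or has no annotated length.

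Because the limit is read where a gene is highest, it bears on WT only for some classes. Read in the WT libraries for every class, an expected background under 10% was found for 560 of 1028 unrestored lower genes, 1026 of 1334 unrestored higher, 401 of 416 overshooting higher, 58 of 74 overshooting lower, 790 of 898 higher in the lines only and 206 of 502 lower in the lines only. The part of the background in the calls that did not pass was not tested gene by gene. With the expected background taken off every count, the overshooting higher genes numbered 239 and the unrestored higher genes 1175. The scale mattered for the higher classes: with plain library totals the median of all genes tested moved from -0.10 to -0.27 in the Hif1α line and from -0.17 to -0.46 in the Myc line, unrestored higher genes fell to 610 and overshooting higher genes to 219, while unrestored lower genes numbered 1360. Without WT replicate 1 the 4 counts were 378 unrestored lower, 734 unrestored higher, 107 overshooting higher and 27 overshooting lower, and without WT replicate 2 they were 372, 731, 135 and 25.

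Unrestored did not mean unmoved. Against the Cxcl5-/- cells, 306 of the 1028 unrestored lower genes had risen toward WT in both lines, 148 in 1 line, and 441 were called in neither. For another 133, at least 1 line lay further below WT than Cxcl5-/- did. Among the 1334 unrestored higher genes, 399 had come down toward WT in both lines, 206 in 1 line, 479 in neither, and 250 lay further above WT in at least 1 line.

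A group of genes was near silence in every Cxcl5-/- derived library. Gstm5, a glutathione S-transferase, had 103 and 120 counts in WT (2.27 and 2.61 CPM) and 0 counts in both Cxcl5-/- libraries and all 6 overexpression libraries. Its level in WT was at least 42.2-fold higher than in the lines, taking 3 counts per library as the floor. Gstm5 belongs to a family of closely related genes, between which reads can be split.

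Manea, an endomannosidase that trims N-glycans, had 314 and 372 counts in WT and 0 to 4 in the 8 other libraries. Tmem218, a membrane protein of the primary cilium, had 190 and 203 in WT and 0 to 10 in the others. Stmn4, a tubulin-binding stathmin, was at 5.38 and 4.20 CPM in WT and at most 0.343 in the lines. For these genes, picked for the size of the difference, no overexpression library came near WT.

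Psmb8, an inducible subunit of the immunoproteasome, was at 12.2 and 14.2 CPM in WT, 1.68 and 1.75 in Cxcl5-/-, 0.275, 0.210 and 0.145 in the Hif1α line and 0.360, 0.413 and 0.617 in the Myc line. Both lines lay further from WT than Cxcl5-/- did, by -3.02 ± 0.30 and -1.87 ± 0.28 against Cxcl5-/- (adjusted p = 1.82e-05 and 0.000263). Expected background made up 41.2% of its reads in the Hif1α line and 16.5% in the Myc line. Psmb9, its partner subunit, was also lower than WT in both lines, by -0.98 and -1.79.

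Krt19, a keratin of ductal epithelium, was at 8.85 and 10.9 CPM in WT, 0.0623 and 0 in Cxcl5-/-, 0.255, 0.315 and 0.398 in the Hif1α line and 0.529, 0.826 and 0.776 in the Myc line. Krt7, another keratin of ducts, went the other way: from 1.54 and 1.09 CPM in WT it was at 38.5, 20.8 and 27.3 in the Hif1α line and 2.90, 3.37 and 4.19 in the Myc line, and it was not called in Cxcl5-/-. Expected background made up 63.3% of its WT reads, so its place against WT is uncertain. In the 2D and 3D table Krt7 was higher in 3D Cxcl5-/- by label than in 3D WT (2.11 ± 0.23, adjusted p = 7.14e-06). Adgrd1, an adhesion G protein-coupled receptor, was lower by -3.92 ± 0.28 in each line, and Stbd1, which binds glycogen, by -5.93 ± 0.87 and -3.82 ± 0.76. The 8 leading unrestored lower genes were Gstm5, Manea, Tmem218, Psmb8, Stmn4, Adgrd1, Stbd1 and Krt19. They were chosen to lie below both WT libraries in all 6 overexpression libraries, with expected background under 10% in WT. Neither trait is thus a result. Their expected background was 2.22% to 7.65% of the WT reads.

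**Figure D3:**
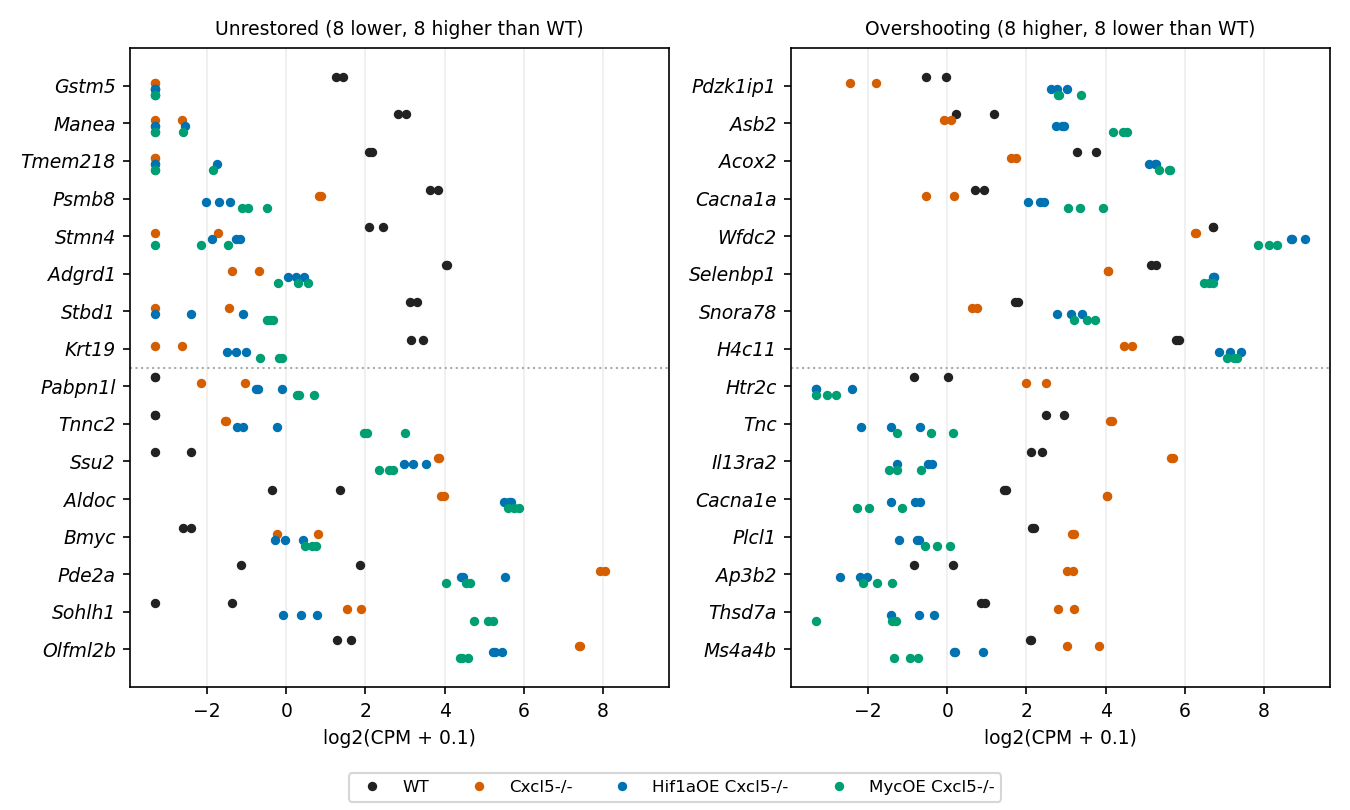
Level in each library, as log2(CPM + 0.1), of the 16 leading unrestored genes (left) and the 16 leading overshooting genes (right), 1 point per library, coloured by group. The value -3.3 at the left edge stands for a CPM of 0. On the left the Cxcl5-/- and overexpression points fall on one side of WT, on the right the WT points lie between Cxcl5-/- and the lines. These positions follow from how the genes were chosen.

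Vim, the intermediate filament of mesenchymal cells, was the unrestored gene of the highest level among the adhesion and EMT factors: 3330 and 3350 CPM in WT, 569 and 544 in Cxcl5-/-, 736, 815 and 730 in the Hif1α line and 1020, 970 and 972 in the Myc line. The lines stayed below WT by -2.13 ± 0.09 and -1.76 ± 0.09 (adjusted p = 2.76e-07 and 1.79e-07), with no overlap. Of 16 EMT and adhesion genes tested, 4 were unrestored lower (Vim, Snai2, Cldn1 and Grhl2; 3.58% of all genes) and 1, Twist2, overshot (1.45% of all genes). Grhl2 did not pass the background limit. The list's median in the Hif1α line was -1.32 against -0.10 for all genes tested, and -0.20 with the background subtracted.

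Of 19 integrins, the receptors that tie cells to matrix, 3 were unrestored lower, 2 unrestored higher and 1 overshot downward, against 3.58%, 4.64% and 0.258% of all genes. Itga6, the laminin-binding α6 chain, was at 77.0 and 80.0 CPM in WT, 2.08 and 1.99 in Cxcl5-/-, 38.3, 35.4 and 37.4 in the Hif1α line, and 3.19, 3.83 and 3.07 in the Myc line. Both lines fell short of WT (-1.08 ± 0.09 and -4.55 ± 0.11), the Hif1α line after a rise of 4.19 ± 0.12 over Cxcl5-/-. Itgb4, which pairs with Itga6 in hemidesmosomes, and Itgb7 were also unrestored lower. Itgb5, a partner of αv, was higher than WT by 1.55 ± 0.08 and 0.88 ± 0.08, at 168 CPM in each WT library and 301 to 519 in the lines.

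Part of the genes induced by HIF-1 remained below WT in both lines, that with the Hif1α mutant included. Of 25 HIF targets outside glycolysis that were tested, 13 were lower and 1 higher in the Hif1α line, and 13 lower and 4 higher in the Myc line, where 10.3% and 14.7% of all genes were lower. In both lines 10 of the 25 were unrestored lower (3.58% of all genes), and none overshot (1.45% of all genes). The list medians were -0.55 and -0.33, and -1.28 in Cxcl5-/-.

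Ero1a, the oxidase that forms disulfide bonds in the endoplasmic reticulum, was at 2210 and 2330 CPM in WT, 393 and 383 in Cxcl5-/-, 819, 708 and 698 in the Hif1α line and 772, 955 and 1030 in the Myc line. It had risen over Cxcl5-/- by 0.93 ± 0.13 and 1.25 ± 0.13, and stood below WT by -1.61 ± 0.12 and -1.30 ± 0.12 (adjusted p = 1.22e-05 and 2.11e-05). Ndrg1, a hypoxia-induced differentiation gene, was lower than WT by -1.24 ± 0.09 and -0.72 ± 0.09.

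Plod2, which hydroxylates collagen lysines, went the other way from rescue. It was at 466 and 448 CPM in WT, 327 and 334 in Cxcl5-/-, 236, 246 and 226 in the Hif1α line and 186, 198 and 229 in the Myc line. Both lines lay below the Cxcl5-/- level, by -0.49 ± 0.09 and -0.69 ± 0.09 (adjusted p = 0.00178 and 0.000117). The remaining unrestored targets were Bnip3, Bnip3l, Mxi1, Vegfa, P4ha1, Bhlhe40 and Car12, of which Car12 did not pass the background limit.

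The promoter letters of 4 of these genes are shown as examples, 3 HIF targets and the glycolytic Hk2. All of them stayed below WT in both lines and hold the core letters just before their start. The letters were not confined to the genes shown. Mxi1, also unrestored lower, holds them 66 bases before a start, and Mcm7, which overshot upward, 171 bases before. The sequences are from RefSeq on GRCm38.p6, on the gene's own strand, and capitals mark ACGTG, its reverse complement CACGT, or CACGTG, which holds both.
Ero1a: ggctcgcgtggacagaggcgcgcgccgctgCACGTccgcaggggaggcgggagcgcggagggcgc
Bnip3: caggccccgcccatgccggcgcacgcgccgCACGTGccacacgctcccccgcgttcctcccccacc
Hk2: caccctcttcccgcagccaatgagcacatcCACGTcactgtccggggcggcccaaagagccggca
P4ha1: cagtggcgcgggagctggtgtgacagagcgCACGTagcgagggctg
These lie at chr14:45318601-45318665 on the minus strand, inside Ero1a in an intron of another transcript, and upstream of their genes at chr7:138909579-138909644 on the minus strand (Bnip3), chr6:82774472-82774536 on the minus strand (Hk2, a second match lies 226 bases before its start) and chr10:59323250-59323295 on the plus strand (P4ha1). ACGTG was found on either strand in 21.8% of all promoters of the table, and CACGTG, which overlaps it, in 8.09%. Only 427 of the 560 unrestored lower genes within the background limit matched a promoter in the table, under 80%, so no share is compared between classes.

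Glycolytic genes stayed below WT in part. Of 22 entries tested, 12 were lower than WT in the Hif1α line and 8 in the Myc line (10.3% and 14.7% of all genes), and 6 were unrestored lower in both (3.58% of all genes): Slc2a1 (the GLUT1 glucose transporter), Hk1, Hk2, Pfkp, Gapdh and Eno1. Hk2, the inducible hexokinase, was at 183 and 170 CPM in WT, 42.1 and 41.3 in Cxcl5-/-, 115, 84.9 and 97.7 in the Hif1α line and 77.8, 84.2 and 95.1 in the Myc line. It remained below WT by -0.83 ± 0.12 and -1.04 ± 0.12. Pgk1 and Ldha were lower than WT in the Hif1α line (-0.60 and -0.49, adjusted p = 0.00152 and 0.00996) and differed by -0.19 and -0.17 in the Myc line (adjusted p = 0.162 and 0.277).

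The isoforms Aldoc and Eno2, typical of neurons, were unrestored in the other direction. Aldoc was at 0.684 and 2.46 CPM in WT, 14.9 and 15.8 in Cxcl5-/-, 49.6, 45.1 and 50.8 in the Hif1α line and 59.3, 48.3 and 53.7 in the Myc line. Both lines lay further from WT, by 1.66 ± 0.27 and 1.81 ± 0.27 over Cxcl5-/-. The expected background was 24.4% of its WT reads.

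Immediate early and AP-1 genes, which respond within minutes to growth factors and stress, split by member. Of 16 tested, 5 were unrestored lower (Jun, Fosl1, Atf3, Nr4a1 and Ier3) and 2 unrestored higher (Egr1 and Egr2), against 3.58% and 4.64% of all genes. Jun was at 73.6 and 70.1 CPM in WT, 42.8 and 51.1 in Cxcl5-/- and 19.8 to 24.7 in the 6 overexpression libraries, below Cxcl5-/- by -1.04 ± 0.11 and -1.12 ± 0.11. Ier3, a survival gene, had risen over Cxcl5-/- (24.4 and 25.6 CPM) to 86.6, 106 and 82.1 in the Hif1α line and 113, 119 and 108 in the Myc line, against 291 and 298 in WT.

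Of 13 genes of glutathione and transsulfuration, 4 were unrestored lower, against 3.58% of all genes: Slc7a11 (the cystine importer), Cth (cystathionine γ-lyase), Gclc (the first enzyme of glutathione synthesis) and Hmox1 (haem oxygenase). Slc7a11 was at 60.6 and 65.1 CPM in WT, 19.5 and 16.8 in Cxcl5-/-, 32.6, 18.3 and 22.4 in the Hif1α line and 15.7, 17.5 and 18.1 in the Myc line. The lines lay below WT by -1.36 ± 0.19 and -1.88 ± 0.19. Gpx1 and Gpx4, peroxidases that spend glutathione, were higher than WT in both lines (Gpx4 by 0.65 and 0.81, adjusted p = 0.0105 and 0.0022) and not called in Cxcl5-/-.

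Among 23 chemokines and receptors tested, 3 were unrestored lower (Csf1, Ackr3 and Cxcl5; 3.58% of all genes) and none was higher in both. Csf1, the macrophage growth factor, was at 160 and 159 CPM in WT, 70.0 and 70.2 in Cxcl5-/-, 95.6, 107 and 104 in the Hif1α line and 60.6, 60.9 and 62.5 in the Myc line. Of 27 interferon-stimulated genes tested, 4 were unrestored higher (Ifit2, Ifit3, Ifit3b and Bst2; 4.64% of all genes) and 1 unrestored lower, the RNA sensor Ifih1, which did not pass the background limit. By line, 11 were higher and 1 lower than WT with Hif1α, and 5 higher and 8 lower with Myc (medians 0.59 and -0.39). Ifit3 and Ifit3b are near-identical copies, so their separate counts are uncertain. Bst2, which tethers virus particles, was at 26.5 and 29.0 CPM in WT and 70.4 to 109 in the 6 overexpression libraries, above Cxcl5-/- (37.2 and 40.1) by 1.03 ± 0.16 and 1.27 ± 0.16.

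The leading unrestored higher genes were low in WT, at 0 to 3.54 CPM. Tnnc2, a troponin C of fast muscle, had 0 counts in both WT libraries, 12 and 12 in Cxcl5-/-, 38, 21 and 18 in the Hif1α line and 179, 363 and 226 in the Myc line. The 6 overexpression libraries together were at least 43.4-fold higher than the WT floor of 3 counts per library, and Pabpn1l, a poly(A)-binding protein relative, at least 14.2-fold. For Tnnc2 this pooled bound rests on the Myc line, at 5.22 CPM on average against 0.479 in the Hif1α line. Ssu2, at 0.0882 and 0 CPM in WT, was at 14.2 and 14.5 in Cxcl5-/- and 4.97 to 11.5 in the lines.

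Pde2a, a cyclic nucleotide phosphodiesterase, was at 0.353 and 3.54 CPM in WT, 245 and 267 in Cxcl5-/-, 46.3, 21.3 and 21.9 in the Hif1α line and 16.2, 23.3 and 25.1 in the Myc line. Olfml2b, a secreted olfactomedin protein, fell from 172 and 169 CPM in Cxcl5-/- to 37.3, 43.5 and 38.5 and to 24.2, 20.8 and 21.6, against 2.34 and 3.00 in WT. Both genes came down from the Cxcl5-/- level and remained above WT. Hp, the haemoglobin scavenger haptoglobin, was at 1.85 and 1.41 CPM in WT, 4.96 and 7.74 in Cxcl5-/-, 10.1, 7.48 and 10.7 in the Hif1α line and 127, 99.8 and 84.3 in the Myc line. Sohlh1 and Bmyc, both at most 0.287 CPM in WT, completed the 8 leading genes.

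Matrix genes were found among the unrestored genes of both directions and among those that overshot downward. Thbs1, a thrombospondin, Col3a1 and Lamb2 were unrestored higher, and Lamb1 and Lama4 were among the unrestored lower genes of the 32 tested. Lama4 did not pass the background limit. Col3a1 was at 216 and 230 CPM in WT, 1030 and 1060 in Cxcl5-/-, 492, 574 and 533 in the Hif1α line and 348, 289 and 345 in the Myc line. Col12a1, Col6a1 and Tnc overshot downward. In each of these classes lay 9.38% of the list. Over all genes, 3.58% were unrestored lower, 4.64% unrestored higher and 0.258% overshooting lower. Col12a1 was at 129 and 158 CPM in WT, 867 and 858 in Cxcl5-/-, 42.2, 62.1 and 70.2 in the Hif1α line and 38.8, 61.5 and 51.5 in the Myc line, below WT by -1.30 ± 0.21 and -1.50 ± 0.21 (adjusted p = 0.00133 and 0.00032). Summed fibroblast markers ran at 71.8 and 75.8 CPM in WT, 447 and 454 in Cxcl5-/-, 131 to 171 in the Hif1α line and 310 to 340 in the Myc line, and their part in the result was not tested. The 4 markers did not move as one: against WT, Pdgfrb differed by 1.10 and 1.63, Dcn by 2.48 and -1.09, and Lum by 0.79 and -0.73 (adjusted p = 0.0922 and 0.12). Pdgfra, at 11 and 12.2 CPM in WT, was at 3.88 to 7.07 in the Hif1α line and 141 to 163 in the Myc line.

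The other fixed lists stand beside 3.58% of all genes unrestored lower, 4.64% unrestored higher and 1.45% overshooting higher. Sterol synthesis had 3 unrestored lower genes of 19 (Sqle, Nsdhl and Hsd17b7, 15.8%) and 1 overshooting, Ebp (5.26%). By line, 3 sterol genes were lower than WT with Hif1α and 15 with Myc, where 10.3% and 14.7% of all genes were. Higher were 5 and 1, against 13.9% and 17.1% of all genes. Serine synthesis and folate metabolism had 1 member in each of 3 classes of 14 genes: Mthfd1l unrestored lower, Aldh1l1 unrestored higher and Tyms, which makes thymidylate, overshooting. Of 22 actin cytoskeleton genes, Tagln2 and Tpm4 were unrestored lower (-0.70 and -0.64 in the Hif1α line, -0.75 and -1.19 in the Myc line).

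Of 12 genes of class I antigen presentation, Psmb8 and Psmb9 were unrestored lower (16.7%, against 3.58% of all genes). Tapbp, the loading factor tapasin, was unrestored higher by 0.78 and 0.54 (8.33% of the list, 4.64% of all genes). Psmb10, the remaining inducible subunit of the immunoproteasome, was higher than WT in both lines (0.78 ± 0.14 and 1.25 ± 0.15, adjusted p = 0.00313 and 9.27e-05) and not called in Cxcl5-/-. Of 9 acute phase genes, Lcn2, which binds siderophores, stayed lower by -2.85 ± 0.45 and -2.30 ± 0.44 and Hp higher. Each was 11.1% of the list, against 3.58% and 4.64% of all genes. The complement genes C3 and Cfb were higher than WT in both lines and not called in Cxcl5-/- (Cfb by 2.92 and 0.71). In the 2D and 3D table, however, C3 was higher in 3D Cxcl5-/- by label than in 3D WT (3.53 ± 0.14, adjusted p = 1.24e-09). Cfb differed there by 1.18 ± 0.62 (adjusted p = 0.141). Of 48 clustered protocadherins, adhesion molecules of neurons, 1 was unrestored lower (Pcdha6, outside the background limit), or 2.08% against 3.58% of all genes. In Cxcl5-/- 27 were higher, where 17.6% of all genes were. The list's median in the Myc line was -0.33, and it turned to 1.23 with the background subtracted.

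**Figure D4:**
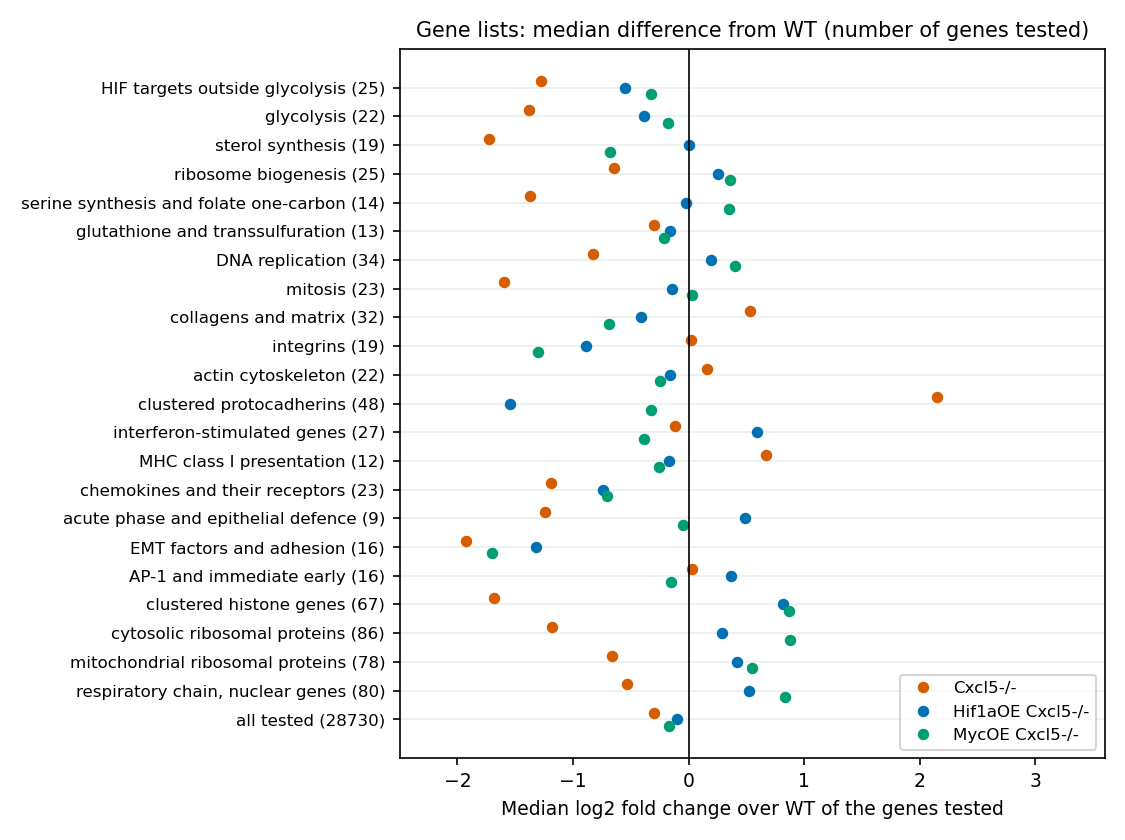
Median log2 fold change over WT of the genes tested in each list, for Cxcl5-/- and the 2 overexpression lines, with the number of genes tested in brackets. The last 4 families before all genes tested were added after their values were seen; histone genes move from -1.68 in Cxcl5-/- to 0.82 and 0.87 in the lines.

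Among the fixed lists, upward overshoot, judged against the 2 WT libraries of this experiment, was found most often in DNA replication and ribosome biogenesis. DNA replication genes, which copy the genome in S phase, gave 7 overshooting members of 34 tested (Mcm5, Mcm7, Gins4, Pold1, Prim1, Rfc2 and Fen1), against 1.45% of all genes. They numbered 2 with library totals and 5 with the background subtracted. Mcm5, of the helicase that opens replication origins, was at 91.4 and 88.7 CPM in WT, 39.6 and 37.9 in Cxcl5-/-, 111, 126 and 108 in the Hif1α line and 174, 168 and 163 in the Myc line. The list's median in the Hif1α line was 0.19, and 0.00 with library totals. Ribosome biogenesis gave 4 of 25 (Ppan, Dkc1, Fbl and Polr1b), and 0 with library totals or with the background subtracted.

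Of 23 mitosis genes only Cdc20 overshot in both lines (4.35%, against 1.45% of all genes). It was at 52.9 and 59.9 CPM in WT, 17.7 and 19.6 in Cxcl5-/-, 74.8, 79.5 and 73.7 in the Hif1α line and 149, 139 and 156 in the Myc line. Nuf2, a kinetochore protein, was unrestored lower, and the other 21 were in neither class. Cdk1 differed from WT by 0.16 and 0.35 (adjusted p = 0.433 and 0.0757).

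A look at families chosen after the values were seen showed 50 of 67 clustered histone genes overshooting (1.45% of all genes), with 42 under library totals and 40 with the background subtracted. These genes feed chromatin assembly in S phase, and their copies are near-identical, so counts of single genes are uncertain. Their summed level was 6833 and 7401 CPM in WT, 2470 and 2646 in Cxcl5-/-, 11550, 15280 and 10440 in the Hif1α line and 14230, 13340 and 12200 in the Myc line. The lines did not overlap WT. H4c11, the only one among the 8 leading genes, was at 54.6 and 57.8 CPM in WT, 22.1 and 25.3 in Cxcl5-/- and 117 to 172 in the lines. Its 3D WT level in the 2D and 3D table, scaled apart, was 150, 121 and 144 CPM, within the range of the lines. It was not called there in 3D Cxcl5-/- (-0.51 ± 0.22, adjusted p = 0.0784).

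Nuclear genes of the respiratory chain overshot for 20 of 80 (18 with library totals, 14 with the background subtracted; 1.45% of all genes) and mitochondrial ribosomal proteins for 23 of 78 (13 and 9). Cytosolic ribosomal proteins overshot for 15 of 86 (11 and 5), with sums of 46360 and 46570 CPM in WT, 51990, 68870 and 46190 in the Hif1α line and 95680, 90690 and 77020 in the Myc line. One Hif1α library overlapped WT there. These short genes with many processed copies can share reads with pseudogenes.

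The other leading overshooting genes were single ones. Selenbp1, a selenium-binding methanethiol oxidase, was at 38.4 and 35.6 CPM in WT, 16.6 in each Cxcl5-/- library, 106, 108 and 104 in the Hif1α line and 105, 89.4 and 98.7 in the Myc line. Acox2, a peroxisomal oxidase of branched-chain fatty acids and bile acid intermediates, was at 13.5 and 9.59 CPM in WT, 3.22 and 2.94 in Cxcl5-/- and 34.1 to 49.1 in the lines. Wfdc2, a secreted protease inhibitor of epithelia, was at 106 and 104 CPM in WT, 78.2 and 76.8 in Cxcl5-/-, 416, 529 and 413 in the Hif1α line and 323, 280 and 230 in the Myc line. Its fall in Cxcl5-/- was -0.44 ± 0.16 (adjusted p = 0.0448).

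Pdzk1ip1, a small membrane protein of epithelia, was at 0.882 and 0.587 CPM in WT and 6.02 to 10.4 in the lines. Expected background made up 28.6% of its WT reads. Asb2, of an E3 ubiquitin ligase, was at 1.06 and 2.17 CPM in WT (background 25.8%) and 0.975 and 0.853 in Cxcl5-/-. It was at 6.63 to 7.61 in the Hif1α line and 18 to 23.2 in the Myc line. Asb2 was called below WT in Cxcl5-/- at an adjusted p of 0.0457, but higher in 3D Cxcl5-/- of the 2D and 3D table (2.67 ± 0.25, adjusted p = 1.83e-06). The snoRNA Snora78 rose to 13.1, 9.07 and 11.5 CPM in the Myc line. Cacna1a, a calcium channel, was at 1.52 and 1.80 CPM in WT, of which the expected background made up 81.0%. Its call below WT in Cxcl5-/- had an adjusted p of 0.0363. Of the 416 overshooting higher genes, 401 had an expected background under 10% of the count in both WT libraries. Pdzk1ip1, Asb2 and Cacna1a were not among these.

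Downward overshoot was rarer and in part lay within the WT background. Il13ra2, the decoy receptor for interleukin 13, was at 4.26 and 5.15 CPM in WT, 50.2 and 52.4 in Cxcl5-/-, 0.608, 0.315 and 0.669 in the Hif1α line and 0.529, 0.261 and 0.317 in the Myc line (-3.15 ± 0.26 and -3.67 ± 0.28 against WT), with background at 5.72% of its WT reads. Tnc, the matrix protein tenascin C, was at 5.52 and 7.65 CPM in WT, 17.9 and 17.2 in Cxcl5-/- and 0.122 to 1.00 in the lines. For Htr2c, Cacna1e, Ap3b2 and Thsd7a, the background expected in WT came to 160%, 112%, 101% and 91.4% of the WT reads. After subtraction Htr2c and Cacna1e differed from WT by 0 in both lines, so for these an overshoot and the WT background cannot be told apart. Of the 74 genes, 58 had an expected background under 10% in WT.

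H2-Q4, a class I histocompatibility gene with close paralogues, also overshot, from 88.8 and 89.5 CPM in Cxcl5-/- to 11.1 to 15.2 in the 6 overexpression libraries, against 20.3 and 21.3 in WT. Itga5, Zyx and Myh9, of the link between integrins and the contractile cytoskeleton, were lower than WT by -0.91, -0.32 and -0.62 in the Hif1α line and by -1.30, -1.15 and -0.88 in the Myc line.

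A separate table compares WT with Cxcl5-/- in flat (2D) and 3D culture, with 3 libraries per group, and its values did not enter the calls that define the members. There, 25.3% of 21367 genes tested were lower than 3D WT and 19.7% higher in 3D Cxcl5-/- by label. Of the unrestored lower genes 682 could be tested there, and 564 (82.7%) were lower in 3D and 130 (19.1%) in 2D, where 3.17% of all genes were. Among those that passed the background limit, 499 of 555 (89.9%) were lower in 3D. Of 1323 unrestored higher genes, 849 (64.2%) were higher in 3D and 240 (18.1%) in 2D, where 3.86% of all genes were.

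Overshooting higher genes, which are lower in Cxcl5-/-, were lower there in 3D for 294 of 416 (70.7%) and in 2D for 6 (1.44%). The 3D WT levels of that table, scaled apart, did not always lie below the lines. Mcm5 was at 174, 138 and 154 CPM in 3D WT and Selenbp1 at 150, 102 and 120, overlapping the lines. H4c11, given above, Cdc20 at 116, 77.9 and 103 CPM and Pold1 at 57.7, 44.8 and 53.3 overlapped them too. Mcm7 at 116, 109 and 105 CPM, Fen1 at 61.8, 53.5 and 62.3 and Gins4 at 17.7, 18.7 and 16.4 lay below the lines. Overshooting lower genes, which are higher in Cxcl5-/-, were higher in 3D Cxcl5-/- of that table for 22 of 69 (31.9%) and lower for 16. On the log2 scale their median difference from 3D WT was 0.05. The rise in Cxcl5-/- that defines this class was thus called there for a minority of its genes. Reads on silent receptor genes also differed in that table, with 94.8 to 130 per 1000000 counts in 3D WT and 50.2 to 58.3 in 3D Cxcl5-/-, and 16.9 to 21.9 in 2D. Against the labels, Cxcl5 stood at 65.5, 40.9 and 45.4 CPM in these 3D Cxcl5-/- libraries and at 28.5, 24.5 and 28.0 in 3D WT.

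Of the leading unrestored lower genes, Gstm5 was at 0 in all 6 libraries labelled Cxcl5-/-, at 0.532 to 0.862 CPM in 2D WT and 2.29 to 3.70 in 3D WT. Manea and Tmem218 were at 0, 0 and 0.763 CPM and at 0, 0 and 0.382 in 3D Cxcl5-/-, against 6.38 to 8.39 and 3.62 to 4.18 in 3D WT, and Stmn4 was at 0.561 to 0.609 CPM in 3D WT and 0 in 3D Cxcl5-/-. Krt19 was at 50.3, 36.5 and 44.4 CPM in 3D WT and at 0, 0 and 0.397 in 3D Cxcl5-/-. Psmb8 was at 51.6, 55.8 and 56.3 CPM in 3D WT and 3.39, 1.94 and 5.21 in 3D Cxcl5-/-. By contrast Ero1a overlapped between genotypes in 2D (87.2 to 96.2 CPM in WT, 81.3 to 96.2 in Cxcl5-/-) and was lower in 3D Cxcl5-/- by -1.94 ± 0.10. Aldoc did not pass the test there in 3D (-0.05 ± 0.16, adjusted p = 0.821). It was at 42.1, 46.7 and 49.5 CPM in 3D WT there, against 0.684 and 2.46 in the rescue WT libraries. Itga6 was at 8.45, 6.10 and 5.66 CPM in 3D WT there, against 77.0 and 80.0 in rescue WT. The place of both genes against WT thus depended on the WT libraries used.

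The unrestored genes were spread unevenly over the chromosomes. Within the background limit, chromosome 8 held 5.28% of the genes tested and 14.0% of the unrestored higher genes. On that chromosome 184 of 939 genes (19.6%) were unrestored higher, against 7.42% over all chromosomes, and 9 were unrestored lower. The median log2 fold change over WT of its genes was 0.45 in Cxcl5-/-, 0.47 in the Hif1α line and 0.44 in the Myc line, where all chromosomes gave 0.20, 0.18 and 0.17.

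The excess ran along the whole of chromosome 8: in 7 bins of 20 megabases, medians were 0.36 to 0.53 in the Hif1α line, 0.31 to 0.52 in the Myc line and 0.26 to 0.53 in Cxcl5-/-. With library totals the chromosome 8 medians were 0.29, 0.14 and 0.49 in the Hif1α line, the Myc line and Cxcl5-/-, against 0.00, -0.12 and 0.25 over all chromosomes. The other table gave a chromosome 8 median of -0.03 for 3D Cxcl5-/- by label against 3D WT. Copy number was not measured, and its part in the result was not tested. Chromosomes 1 and 2 held 10.4% and 12% of unrestored lower genes against 6.43% and 7.63% of those tested, and chromosome 13, where most histone genes of the cluster lie, 14.6% of overshooting higher genes against 4.24%.

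**Figure D5:**
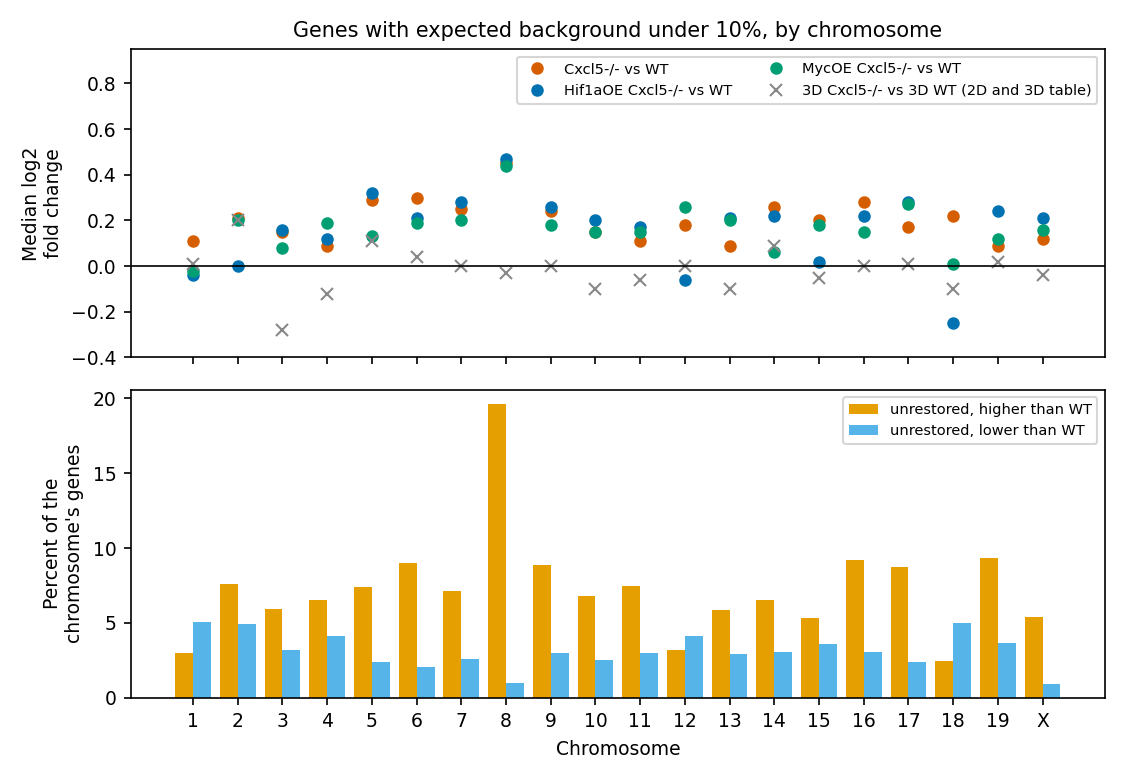
By chromosome, for genes within the background limit: above, the median log2 fold change over WT in Cxcl5-/- and both lines (points) and in 3D Cxcl5-/- of the 2D and 3D table (crosses); below, the percent of the chromosome's genes that were unrestored. Chromosome 8 reaches 19.6% unrestored higher, and its cross lies at -0.03.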

How the data were processed

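Per the labels, RNA was sequenced from stranded total RNA libraries. The authors aligned the reads to GRCm38 with HISAT2 (mm10 in the submitters' processing notes) and deposited gene counts from StringTie, unnormalised; versions are not given in the sources used here. All value columns of the 2 tables were used. The cell line name in the labels runs on from sample to sample, so the study's Panc02 was followed. The members and gene lists were chosen with earlier results of these data known.

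The 10 rescue libraries (56941 genes) were fitted together with edgeR 4.0.16 in R 4.3.3: TMM scaling, filtering by group, quasi-likelihood test, group as the only term. The same was done for the 12 libraries of the 2D and 3D table. The SE is the log2 fold change divided by the square root of F. Gene IDs were matched to GENCODE for names, positions and lengths (52000 matched). The test was checked on simulated data. Figures used matplotlib; tables used numpy and pandas.

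Named genes were Cxcl5, Hif1a and Myc, genes the study names for the rescue, class members of the 19 fixed lists, and up to 8 genes per class with the largest smaller change of the lines, all 6 overexpression libraries beyond both WT libraries, a mean count of at least 50 and the background limit passed; Gm, Rik and pseudogene symbols were left out. The text gives part of these. Alternatives were DESeq2 1.42.0, its size factors, library totals, other filters, only the groups compared, a replicate block, each library left out, entries of one symbol summed, the background limit, and, chosen after seeing the data, background subtraction. The conditioned-medium libraries were not used here.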

Additional observations from a re-analysis of the deposited data

How the results depend on the processing

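Counts of genes called moved by over 1.5 times as follows. The DESeq2 Wald test gave 140 overshooting lower genes. DESeq2 size factors gave 2584 genes higher in the Hif1α line, 1637 higher in both and 833 unrestored higher. Library totals gave 2209 and 2477 higher in the Hif1α and Myc lines, 1157 in both, 610 unrestored higher, 219 overshooting higher and 127 overshooting lower. With no filter, 1508 and 2448 genes were lower in the lines, 813 in both, 562 unrestored and 44 overshooting. At least 10 counts in every sample gave 1715 higher in both, 855 unrestored higher and 138 overshooting lower. Fitting only the groups compared gave 10521 lower in Cxcl5-/- and 1746 unrestored lower. Testing only genes within the 10% background limit, which leaves fewer genes, gave 1489, 1927 and 3755 lower in the Hif1α line, the Myc line and Cxcl5-/-, 927 in both and 634 unrestored. A log2 fold change above 1 in all 3 contrasts left 236 unrestored higher and 583 lower, and counting genes on the other side of WT but not called in Cxcl5-/- gave 113 overshooting lower. Background subtraction, chosen after seeing the data, gave 239 overshooting higher. It took Htr2c and Cacna1e to 0.00 in both lines and turned the sign of Thsd7a in the Hif1α line (0.03). Apart from the settings described by their own construction, the cause was not tested. Of each class, 517 of 1028, 486 of 1334, 143 of 416 and 36 of 74 genes (unrestored lower and higher, overshooting higher and lower) remained in it under DESeq2 size factors, library totals, background subtraction and the background limit together.

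Olfactory receptor genes alone gave 456 reads per 1000000 counts in WT, 56.6 in Cxcl5-/-, 73.0 in the Hif1α line and 70.9 in the Myc line, and vomeronasal and taste receptor genes alone 239, 35.5, 58.2 and 41.4. Replicate numbers did not pair the rescue libraries (correlation of deviations of same-numbered libraries -0.0245 to 0.0498). A replicate block gave 698 overshooting higher, 108 overshooting lower, 1243 unrestored higher and 769 unrestored lower.

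Leaving out 1 library at a time, the Hif1α line had 2138 to 4042 genes higher and 1022 to 3453 lower than WT, the Myc line 3139 to 5189 and 1756 to 4656, and Cxcl5-/- 3668 to 5270 and 3760 to 8350. Both lines together had 1322 to 2715 higher and 545 to 1373 lower. Unrestored genes numbered 731 to 1355 (higher) and 372 to 1015 (lower), overshooting genes 107 to 592 and 25 to 84. The lone library left in a group was assumed to vary like those of the other groups. Each WT library moved all of these counts but that of genes higher in Cxcl5-/- by over 1.5 times. Without Cxcl5-/- replicate 1 or 2, 3868 or 3760 genes were lower in Cxcl5-/- and 33 or 37 overshot downward, without replicate 1 also 263 upward, and without Hif1α line replicate 1, 1928 were lower in that line. Silent receptor reads were 692 to 701 per 1000000 counts in WT, 89.4 to 94.8 in Cxcl5-/-, 124 to 142 in the Hif1α line and 98.0 to 124 in the Myc line. In the 2D and 3D table, 537 to 571 unrestored lower and 750 to 896 unrestored higher genes were called in 3D. With 2 WT libraries, small differences are beyond the reach of these tests, and a gene under about the background of the WT libraries cannot be placed against WT.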

Other observations

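Counted line by line, 608 genes overshot WT upward in the Hif1α line and 1142 in the Myc line, and 210 and 384 overshot downward. Of the genes higher than WT in both lines but not called in Cxcl5-/-, 893 could be tested in the table of 2D and 3D cultures, where 89 (9.97%) were higher and 240 lower in 3D Cxcl5-/- by label. The classes differed in transcript size, with a median exonic length of 4677 bases in unrestored lower genes, 4714 in unrestored higher, 2024 in overshooting higher and 8156 in overshooting lower genes, against 3040 over all genes tested.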
